A study of Mus musculus with 24 samples.

Results

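Extracellular vesicles (EVs) are small membrane-bound particles that cells release into their medium with part of their RNA inside. The 6 libraries described here hold RNA of EVs from BV2 cells, an immortalised mouse microglial line, and belong to a series of 24 libraries in 8 groups of 3. Of the EV groups that enter, 3 come from treated cells: LPS EVs from cells given lipopolysaccharide at 100 ng/mL, IL-10 EVs from cells given interleukin-10 at 50 ng/mL, and TGF-β EVs from cells given transforming growth factor β at 50 ng/mL, each for 72 h. The reference was the EVs of untreated control cells, called control EVs. The comparison is LPS EVs against control EVs over every listed gene. LPS EVs were also set beside the other 2 treated groups and beside the 3 LPS and 3 control libraries of the cells themselves, which have the same treatment labels. All 13290 genes of the deposited count table are members, and 12216 had enough counts to be tested. The labels name no separate cultures, dates or pairs, and whatever the p-values measure may be technical spread among the libraries. How the EVs were isolated is not given in the sources used here. EVs are mixtures, so fewer vesicles of one kind and less RNA per vesicle cannot be told apart.

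Microglia are the resident macrophages of the brain. They sense lipopolysaccharide, a component of the outer membrane of Gram-negative bacteria, through the receptor TLR4. One branch of its signalling passes through the adaptor MyD88 to the transcription factor NF-κB and switches on cytokine and chemokine genes. Another branch passes through TRIF to IRF3 and type I interferon, which switches on interferon-stimulated genes. EVs of macrophages and microglia are known to carry mRNA, small RNA and protein between cells.

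EV libraries were shallower than cell libraries and varied more. LPS EVs had 4370823, 3019338 and 6278724 counts, against 17978753, 5645725 and 7011591 counts in control EVs. The cell libraries had between 26910894 and 42125153 counts. Gene by gene, log-scale values of the 3 LPS EV libraries correlated with each other at r between 0.767 and 0.855, those of the 3 control EV libraries at r between 0.687 and 0.737, and LPS EVs with control EVs at r between 0.565 and 0.696. Control EVs 1 correlated with the control cell libraries at 0.845, 0.8455 and 0.843, above its 0.698 and 0.687 with control EVs 2 and 3. Control EVs 2 and 3 correlated with the control cells at r between 0.709 and 0.734. The common dispersion, a squared coefficient of variation between replicates, was 1.16 among the 6 EV libraries and 0.0106 among the 6 cell libraries. Values below are CPM, the counts of a gene per 1000000 counts of its library, scaled by the trimmed mean of M-values (TMM) within the 6 libraries of each comparison, unless given as CPM of library totals. A gene passed the test at an adjusted p under 0.05 in edgeR's quasi-likelihood test with Benjamini-Hochberg adjustment over all genes tested. Where all 3 libraries of a group had no count, a floor of 3 counts per library gives a lower bound for the fold. The floor covers counting error only. The SE of a log2 fold change is derived from the quasi-likelihood test, so it includes the fitted spread among libraries.

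The test placed 1703 RNAs higher in LPS EVs (13.9% of those tested) and 29 lower (0.237%), 14.2% in either direction. The 3 libraries of each group did not overlap for 3226 genes higher (26.4%) and 654 lower (5.35%) in LPS EVs, 31.8% together. The count of calls is not stable. Leaving out any 1 of the 3 LPS EV libraries left 0 calls in edgeR, with lowest adjusted p-values of 0.0713, 0.106 and 0.0976 and between 1931 and 2354 genes higher at an unadjusted p under 0.05. Leaving out a control EV library instead gave 2481, 2097 or 2144 higher and 118, 30 or 24 lower. DESeq2 on all 6 libraries placed 2141 higher and 225 lower. Single genes below are therefore given with the value of every library. Their adjusted p-values share the adjustment with 1464 called genes that had no count in any control EV library. With only genes at 1 CPM or more in cells, 0 passed. Il1b, Ier3, Ccl2, Ccl9, Vps18 and Dgkd then all stood at an edgeR adjusted p of 0.0857.

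RNAs of the cytokine response to lipopolysaccharide were among those higher in LPS EVs. Of 43 tested genes of the TLR4 and NF-κB list, 7 rose, 0 fell, and the median log2 fold change was 1.00, against 0.33 over all genes tested. The share of 7 in 43 lies near the 13.9% over all genes. The cells of the same treatment raised 40 of 45, against 28.6% of all genes tested in cells. Il1b, which encodes the precursor of interleukin-1β, stood at 1237, 644 and 714 CPM in LPS EVs and at 97.6, 20.7 and 35.6 CPM in control EVs. The lowest LPS EV library stood above the highest control EV library. The fold was 16.8 (log2 4.07 ± 0.71 SE, edgeR adjusted p = 0.025), and over the alternative settings the log2 fold change of Il1b lay between 3.70 and 4.94 and passed in 11 of 18. In LPS cells Il1b averaged 611 ± 105 CPM, against 10.3 ± 0.57 CPM in control cells (SD, n = 3 each).

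Ier3, an immediate early gene that NF-κB induces, had 429.6, 214 and 375 CPM in LPS EVs and 103, 85.8 and 61.6 CPM in control EVs. The groups did not overlap, and the fold was 4.07 (log2 2.02 ± 0.44 SE, edgeR adjusted p = 0.025). The other 5 that rose had no count in any control EV library. Csf3, the gene of granulocyte colony-stimulating factor, had 67.3, 49.8 and 38 CPM in LPS EVs, at least 124-fold higher. Gpr84, a receptor for medium-chain fatty acids, had 24.8, 15.5 and 23.7 CPM. Fpr2, a formyl peptide receptor, had 6.71, 29.7 and 15.8 CPM, and Irak3, an inhibitor of TLR signalling, had 9.55, 12 and 12 CPM. Il6, which encodes interleukin-6, had 4.9, 19.4 and 8.67 CPM, at least 26.4-fold higher than in control EVs. Its level in LPS cells was 0.724 CPM, and control cells had no count of it. Il6 and Irak3 no longer had enough counts to be tested once the level of cell-silent genes, described below, was taken off.

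Chemokine RNAs gave the largest share among the response and function lists of 10 or more tested genes. Of 12 tested, 8 rose and 0 fell, with a median log2 fold change of 3.98. That share stands beside 13.9% over all genes tested, and cells raised 11 of 12, beside 28.6% of all genes tested in cells. Cxcl10, the interferon-induced ligand of CXCR3, had 790.0, 363 and 584 CPM in LPS EVs and 13.2, 0 and 17.7 CPM in control EVs, a fold of 55.7 (log2 5.80 ± 1.39 SE, edgeR adjusted p = 0.0301). Ccl2, the monocyte attractant that binds CCR2, had 213, 94 and 145 CPM in LPS EVs, against 19.3, 5.63 and 10 CPM in control EVs. Its fold was 12.8 (log2 3.68 ± 0.67 SE, edgeR adjusted p = 0.025). Ccl5, an attractant of T cells and monocytes, had 453, 173 and 261 CPM in LPS EVs and 57.4, 12.3 and 40 CPM in control EVs, a fold of 8.06 (log2 3.01 ± 0.69 SE, edgeR adjusted p = 0.0255). Ccl9, a ligand of CCR1 in mice, had 948, 389.5 and 598 CPM in LPS EVs and 139, 118 and 160.3 CPM in control EVs, a fold of 4.64 (log2 2.22 ± 0.45 SE, edgeR adjusted p = 0.025). For none of these 4, as for none of the 1703 called higher, did the highest control EV library reach the lowest LPS EV library.

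The remaining 4 chemokines that rose had no count in control EVs. Cxcl9, another CXCR3 ligand, had 27.1, 17.2 and 14.1 CPM in LPS EVs, at least 46.6-fold higher. Ccl12, a CCR2 ligand of mice, had 25.3, 15.2 and 18.4 CPM. Ccl6 had 9.55, 6.23 and 14.1 CPM, and Cxcl16, a membrane-bound chemokine, had 5.93, 2.74 and 4.56 CPM. Cxcl9, Ccl6 and Cxcl16 were no longer tested once the level of cell-silent genes, described below, was taken off. Ccl3 and Ccl4, both macrophage inflammatory proteins, did not pass in edgeR. Ccl3 had 2164, 859 and 1264 CPM in LPS EVs and 425, 85.1 and 441 CPM in control EVs (edgeR adjusted p = 0.106). Ccl4 had 419.8, 183 and 255 CPM in LPS EVs and 178, 43.2 and 78.7 CPM in control EVs (edgeR adjusted p = 0.217). In DESeq2 the adjusted p was 0.00646 for Ccl3 and 0.0803 for Ccl4. Part of the list entered the table through its counts in EVs. Among the 9 tested chemokines with enough counts in the cells to be listed whatever the EVs held, 5 rose. The share over all tested genes of that kind was 5.51%. Entry to the test still ran through EV counts, and of the 566 rises behind that share, 450 had no count in control EVs.

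**Figure D1:**
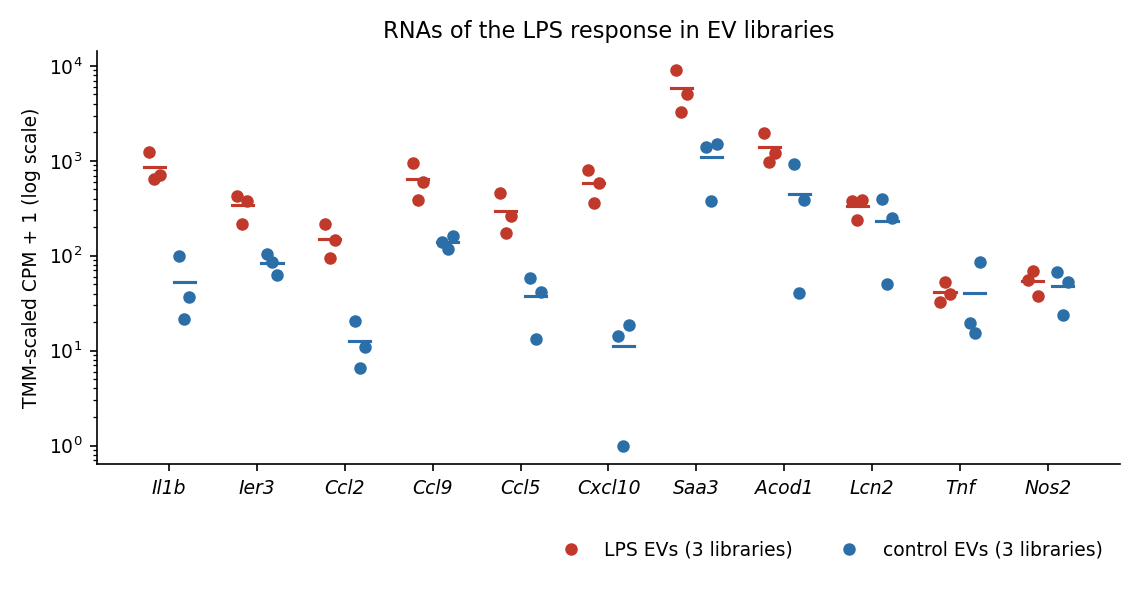
TMM-scaled CPM plus 1 on a log scale of RNAs of the lipopolysaccharide response in each LPS EV library (left of each pair) and each control EV library (right), with the group means as bars. The 3 points of LPS EVs for Il1b lie between 644 and 1237 CPM, above the control EV points between 20.7 and 97.6 CPM, while those of Lcn2, Tnf and Nos2 overlap.

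Promoters of RNAs that rose in both LPS EVs and LPS cells are shown because these members moved together. Of 21 such genes in the TLR4, chemokine and interferon lists, 15 had a promoter in RefSeq for GRCm38.p6, covering 250 bases before and 50 bases after the start of the gene. The windows were searched on both strands for the NF-κB consensus and for the core of interferon-stimulated response elements, written here as GAAA, any pair of bases, then GAAA. The NF-κB consensus was found in 4 of the 15, Cxcl10, Ccl9, Ier3 and Il6, and the interferon element core in 4 of the 15. Over all 27025 mouse promoters of that length, 2211 (8.18%) hold the NF-κB consensus and 943 (3.49%) hold the interferon element core. Over the 9146 of them that belong to genes tested in EVs, these were 913 (9.98%) and 279 (3.05%). Both motifs stand in the Cxcl10 promoter (GRCm38.p6, chr5:92348840-92349139, minus strand), where NF-κB matches begin 159, 104 and 103 bases before the start and the last 2 overlap. One NF-κB match stands in the Ccl9 promoter (chr11:83578587-83578886, minus strand) and one in the Ier3 promoter (chr17:35821463-35821762, plus strand). The Ifit3b promoter (chr19:34607707-34608006, plus strand), of an interferon-induced gene described next, holds 2 matches of the interferon element core. All are written 5′ to 3′ with the matches, on either strand, in capitals, and a match is a description of letters.
Cxcl10: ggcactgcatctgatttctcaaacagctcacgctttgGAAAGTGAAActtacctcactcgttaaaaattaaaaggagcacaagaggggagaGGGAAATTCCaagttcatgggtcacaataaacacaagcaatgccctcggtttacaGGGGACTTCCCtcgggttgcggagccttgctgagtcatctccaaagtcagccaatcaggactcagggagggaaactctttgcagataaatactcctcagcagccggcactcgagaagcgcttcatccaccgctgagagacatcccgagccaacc
Ccl9: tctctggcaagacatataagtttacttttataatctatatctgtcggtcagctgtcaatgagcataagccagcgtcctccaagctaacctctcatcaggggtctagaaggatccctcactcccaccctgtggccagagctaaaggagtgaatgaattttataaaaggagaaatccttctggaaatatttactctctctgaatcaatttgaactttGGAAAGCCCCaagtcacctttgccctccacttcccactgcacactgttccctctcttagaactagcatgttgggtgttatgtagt
Ier3: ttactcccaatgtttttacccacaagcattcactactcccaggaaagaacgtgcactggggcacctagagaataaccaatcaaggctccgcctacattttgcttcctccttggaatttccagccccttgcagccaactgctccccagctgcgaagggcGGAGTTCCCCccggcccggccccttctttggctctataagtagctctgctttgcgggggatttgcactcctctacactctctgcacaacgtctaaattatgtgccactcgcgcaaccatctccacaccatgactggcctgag
Ifit3b: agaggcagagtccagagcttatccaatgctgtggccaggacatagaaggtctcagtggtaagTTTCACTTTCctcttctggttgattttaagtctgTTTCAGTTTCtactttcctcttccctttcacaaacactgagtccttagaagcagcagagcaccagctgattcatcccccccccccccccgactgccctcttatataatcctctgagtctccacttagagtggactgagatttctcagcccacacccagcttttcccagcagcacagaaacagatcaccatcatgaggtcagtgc

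Of 52 tested genes of the type I interferon list, 9 rose and 0 fell in LPS EVs, with a median log2 fold change of 1.74, and 17 were higher at an unadjusted p under 0.05. The share of 9 in 52 lies near the 13.9% over all genes. Cells raised 50 of 53, beside 28.6% of all genes tested in cells. Among genes that the cell counts alone would have listed, 7 of 50 of this list and 6 of 42 of the TLR4 list rose. The share over all such genes was 5.51%. These genes still entered the test through EV counts, so the shares are descriptions. Rtp4, a chaperone of receptors that interferon induces, had 92.1, 31.4 and 67.4 CPM in LPS EVs and no count in control EVs, at least 152-fold higher. Xaf1, a pro-apoptotic interferon-stimulated gene, had 116, 71.8 and 119 CPM in LPS EVs and 0, 0.835 and 0 CPM in control EVs (edgeR adjusted p = 0.025). Ifit3b, a member of the IFIT family of RNA-binding proteins, had 55.7, 31.2 and 27.8 CPM in LPS EVs, at least 91.6-fold above control EVs, where it had no count. Its near-identical paralogues make the assignment of its reads uncertain. Irgm1, an immunity-related GTPase, was present in every library, at 158, 126 and 242 CPM in LPS EVs and 56.1, 19.6 and 48.8 CPM in control EVs. Its log2 fold change was 2.08 ± 0.55 SE (edgeR adjusted p = 0.0443). Cmpk2, Ifi44, Parp14, Samd9l and Slfn5 were the others that rose. These were no longer tested once the level of cell-silent genes, described below, was taken off. Cmpk2, a mitochondrial nucleotide kinase, had 23, 22.9 and 21.1 CPM in LPS EVs and no count in control EVs.

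The RNAs that the cells changed most differed less between the EV groups than between the cell groups. The 12 genes taken here differed over 100-fold between LPS and control cells and reached 50 CPM of library totals in one of them, a rule set after the values were seen. In cells 10 of them rose with LPS and 2 fell, and 0 of the 12 passed the edgeR test in EVs. The 10 that rose in cells all averaged higher in LPS EVs than in control EVs, by 1.52 to 7.67 times on CPM of totals. For 6 of them (Saa3, Acod1, Gbp2, Hp, H2-M2 and Gm14275) the EV groups did not overlap. Over all genes tested, 26.4% were higher in LPS EVs without overlap, with TMM scaling. The same 10 averaged higher in control EVs than in control cells, and 8 of them averaged lower in LPS EVs than in LPS cells. Lcn2, the siderophore-binding protein lipocalin-2, had 331, 313 and 408 CPM of totals in LPS EVs and 403, 42.3 and 230 CPM in control EVs, so the groups overlapped. In cells the same scale gave means of 1813 CPM with LPS and 0.07 CPM in controls. Control cells had 0, 7 and 0 counts of Lcn2, while control EVs had 7239, 239 and 1612.

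Saa3, an acute-phase serum amyloid that macrophages make, had 8109, 4320 and 5309 CPM of totals in LPS EVs and 1415, 321 and 1395 CPM in control EVs. Its means were 4075 CPM in LPS cells and 7.2 CPM in control cells. With TMM scaling its log2 fold change in EVs was 2.41 ± 0.68 SE with an edgeR adjusted p of 0.0617, and DESeq2 gave an adjusted p of 0.000546. Acod1, which makes the metabolite itaconate, had 1750, 1292 and 1276 CPM of totals in LPS EVs and 927, 33.1 and 357 CPM in control EVs, beside 3437 CPM in LPS cells and 19.2 CPM in control cells. Marco, a scavenger receptor, had 318, 191 and 233 CPM in LPS EVs and 267, 23.6 and 127 CPM in control EVs, beside 1484 CPM in LPS cells and 7.39 CPM in control cells. For each of these 4 RNAs, control EVs 1 held the most of the control EV libraries and control EVs 2 the least.

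The other 2 fell in LPS cells. Arg1, the enzyme arginase 1, had 59.5, 74.5 and 33.1 CPM of totals in LPS EVs and 145, 137 and 148 CPM in control EVs, without overlap (edgeR adjusted p = 0.06, DESeq2 adjusted p = 0.00666). Its means were 0.23 CPM in LPS cells and 273 CPM in control cells. F13a1, the A chain of clotting factor XIII, had 2.75, 245 and 133 CPM in LPS EVs and 1007, 194 and 435 CPM in control EVs, beside 1.06 CPM in LPS cells and 1268 CPM in control cells. The LPS effect in EVs minus that in cells passed the test for 10 of the 12 genes in edgeR. It passed for 9 of the 12 in limma-voom with weights per group. Over all 13263 genes, 16.1% passed in edgeR, and 6 upward and 18 downward in limma-voom. The 12 were chosen by the cell change that enters this difference, so these counts are no independent support. For Lcn2 that difference was −13.99 on the log2 scale in edgeR and −14.80 in limma-voom (adjusted p = 3.33e-06).

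**Figure D2:**
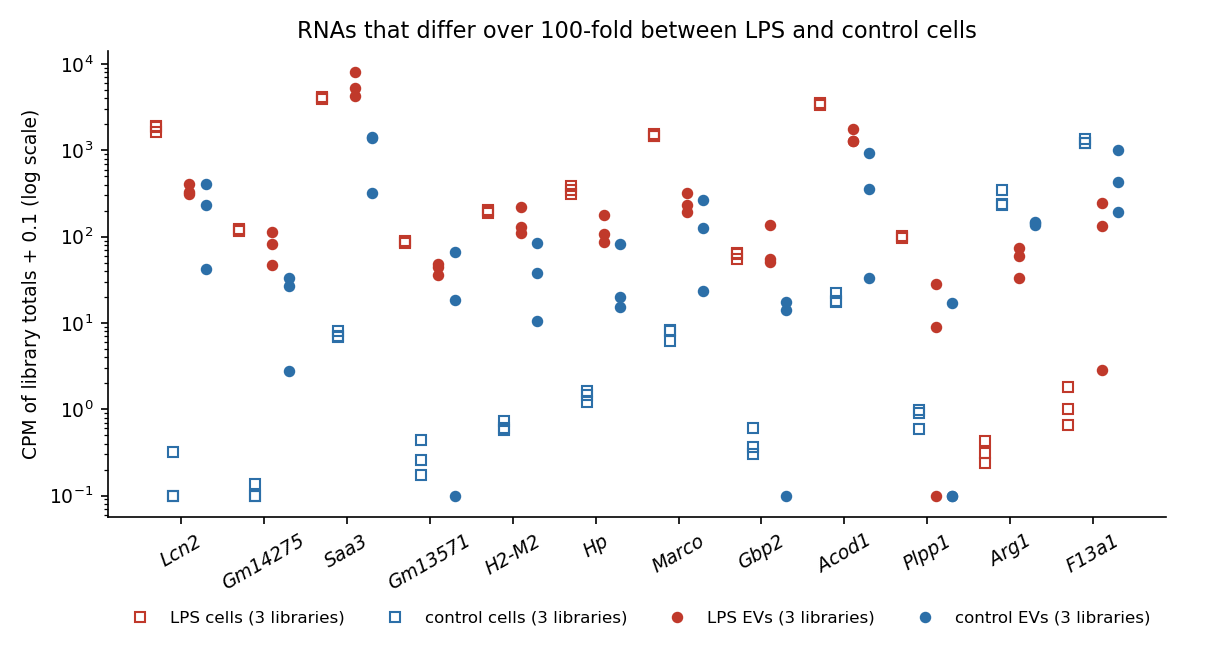
CPM of library totals plus 0.1 on a log scale of the 12 RNAs that differ over 100-fold between LPS and control cells, as open squares for LPS and control cells and filled points for LPS and control EVs, 3 libraries each. Lcn2 lies at 331, 313 and 408 CPM in LPS EVs and at 403, 42.3 and 230 CPM in control EVs, while the cell groups stand far apart.

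The same was measured as a share of all counts. RNAs raised over 8-fold in LPS cells made up 2.13% ± 0.272 of the counts of LPS EVs and 0.394% ± 0.251 of those of control EVs (SD, n = 3 each, exact permutation p = 0.1, the smallest this design allows). In the cells they made up 2.35% ± 0.0994 with LPS and 0.0815% ± 0.000664 in controls. IL-10 EVs held 0.358% ± 0.394 and TGF-β EVs 0.199% ± 0.216. RNAs lowered over 8-fold in LPS cells made up 0.122% ± 0.0412 of the counts of LPS EVs and 0.178% ± 0.0782 of those of control EVs (exact permutation p = 0.5), against 0.0206% in LPS cells and 0.381% in control cells. Of 166 tested RNAs raised over 8-fold in cells, 66 rose in LPS EVs (39.8%, against 13.9% over all genes tested) and 0 fell, with a median log2 fold change of 3.77. With only those that the cell counts alone would have listed, 41 of 127 rose, and the median was 2.97. The share over all such genes was 5.51%. Their entry to the test still ran through EV counts, so these shares are descriptions. Of 45 tested RNAs lowered over 8-fold in cells, 8 rose and 1 fell in LPS EVs, a share of rises near 13.9%.

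For 2 further RNAs induced in cells the EV groups overlapped. Tnf, the gene of tumour necrosis factor, had 31.2, 52.3 and 38.9 CPM in LPS EVs and 18.5, 14.2 and 84.9 CPM in control EVs (edgeR adjusted p = 0.992). Nos2, the inducible nitric oxide synthase, had 53.9, 68.8 and 36.8 CPM in LPS EVs and 66.7, 22.5 and 52.2 CPM in control EVs (edgeR adjusted p = 0.966). Of 12 tested acute-phase and antimicrobial genes, 0 passed in EVs with a median log2 fold change of 0.25, whereas cells raised 12 of 14. Over all genes tested in cells, 28.6% rose.

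**Figure D3:**
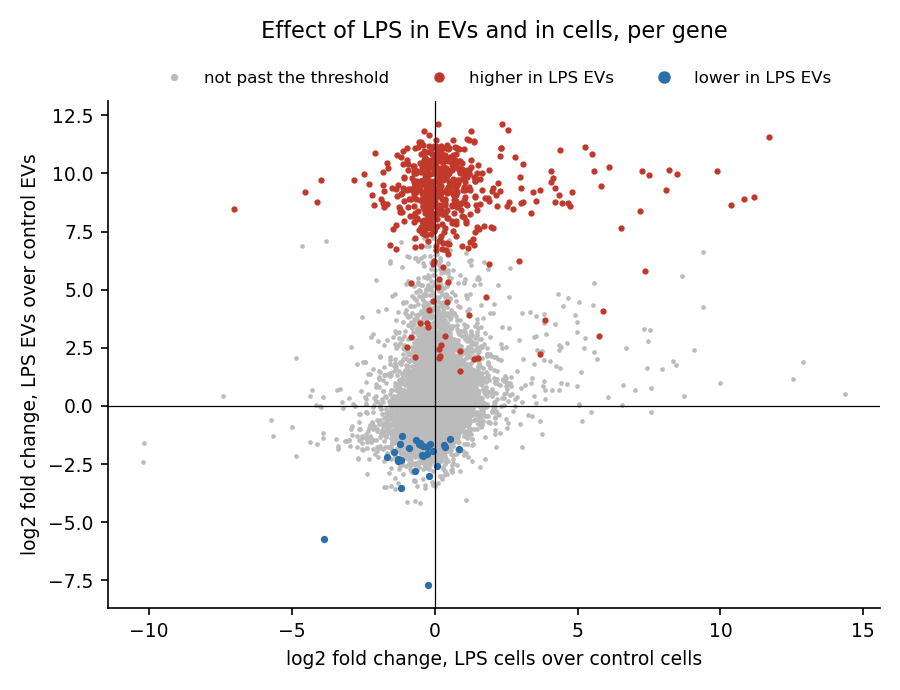
Log2 fold change of LPS over control in EVs (vertical axis) against that in cells (horizontal axis) for the 10278 tested genes that the cell counts alone would have listed, with genes past the EV threshold in colour. Most genes higher in LPS EVs form a band at the top near 0 on the horizontal axis, where control EVs had no count and the fitted size depends on the prior count.

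Across genes, the change in EVs tracked the change in cells loosely. The correlation of the 2 log2 fold changes over the 10278 genes that the cell counts alone would have listed was r = 0.184, a description across genes, which are not independent replicates. In cells 56.1% of genes passed, with 3421 higher with LPS (28.6% of 11951) and 3285 lower (27.5%). RNAs past the cell threshold by over 2-fold upward numbered 862 among those tested in EVs, and 178 of them rose and 0 fell, with a median of 1.23. Those lowered over 2-fold in cells numbered 699, of which 71 rose and 9 fell, with a median of −0.29. Among RNAs that did not pass in cells but that the cell counts alone would have listed, 273 of 4126 rose and 5 fell, near the 5.51% over all such genes. The shares for the 862 and the 699 stand beside 13.9% over all genes tested. The LPS effect in EVs differed from that in cells for 16.1% of 13263 genes in edgeR, 1864 upward (14.1%) and 271 downward (2.04%), but for 6 upward and 18 downward in limma-voom with weights per group.

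Of the 1703, 1464 had no count in any control EV library. Only 1465 tested genes had none there, and such a gene passes the filter on low counts through LPS EVs alone, so their calls follow from the filter. Of the genes listed, 4.42%, 0.489% and 1.21% had no count in the LPS EV libraries, against 29.0%, 33.1% and 33.5% in the control EV libraries. The means were 2.04% ± 2.09 in LPS EVs and 31.8% ± 2.49 in control EVs. Among genes that the cell counts alone would have listed they were 1.46% ± 1.72 in LPS EVs and 22.3% ± 3.76 in control EVs (SD, n = 3 each, exact permutation p = 0.1). After thinning every library to one depth, the means over listed genes were 2.52% in LPS EVs and 33.4% in control EVs. IL-10 EVs lacked 31.3% ± 8.08 and TGF-β EVs 32.2% ± 15.8, so LPS EVs stood apart from all 3 other EV groups, although their libraries were the shallowest of the 4 on average.

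A gene is in the deposited table if it has at least 240 counts over the 24 libraries, so a gene scarce in the LPS and control cells had to reach them through other libraries, EVs included. Counts by level in cells are partly set by that and are given as a description. Among tested genes without a count in the LPS and control cells, 168 of 205 rose, and at up to 0.1 CPM in cells 482 of 661 rose. Between 1 and 10 CPM 466 of 2167 rose and 1 fell. At 10 to 100 CPM 188 of 6021 rose and 5 fell, and above 100 CPM 10 of 2359 rose and 23 fell, with a median log2 fold change of −0.39. Restricting to genes with 240 counts in the 6 LPS and control cell libraries left 10278 tested, of which 566 rose (5.51%) and 29 fell (0.282%), with a median log2 fold change of 0.0886. Of those 566, 450 had no count in control EVs. Scaling by library totals in place of TMM moved the median of all tested genes by 0.21, and changes below that size have no direction of their own.

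**Figure D4:**
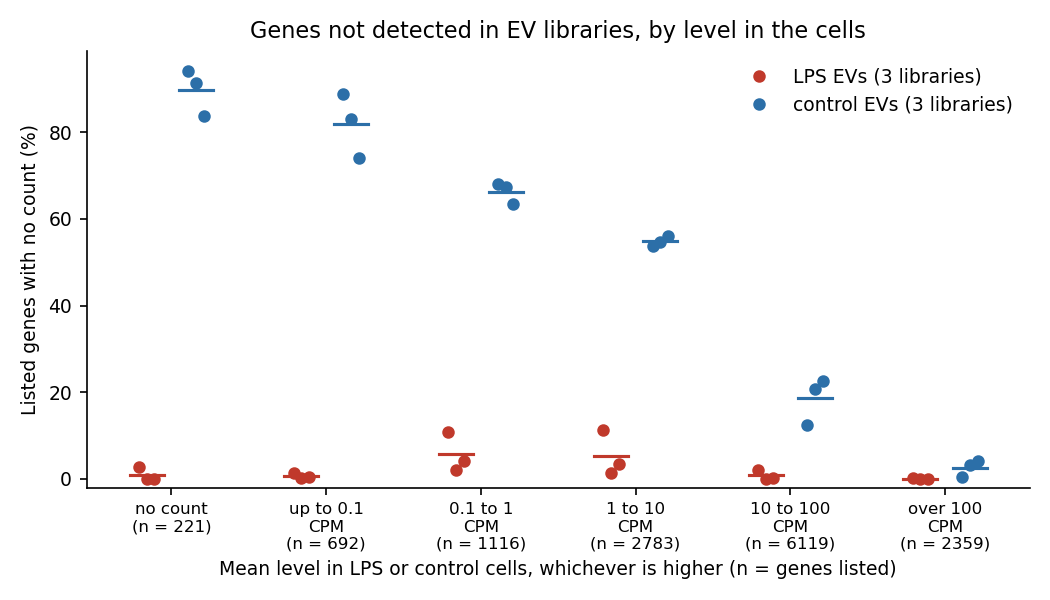
Percent of listed genes without a count in each EV library, by the CPM of the gene in LPS and control cells, with LPS EVs left of control EVs. LPS EVs lie below control EVs in the low classes, and over all listed genes the means are 2.04% in LPS EVs and 31.8% in control EVs.

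RNAs without a count in the LPS or control cells took 0.538% ± 0.369 of the counts of LPS EVs and 0.0122% ± 0.0074 of those of control EVs (SD, n = 3 each). No test is given, since many of these genes are listed through their counts in EVs. IL-10 EVs gave 0.00802% and TGF-β EVs 0.00717%. As CPM per kilobase of exon, these genes stood at 1.95, 7.94 and 3.64 in LPS EVs and 0.0414, 0.101 and 0.166 in control EVs, with LPS EVs 2 the highest of all. Cell-silent genes with too few counts to be listed are absent from this level. It may therefore be too high, most of all in LPS EVs. If that level is taken off every gene in proportion to its exon length, 10.3%, 39.6% and 19.4% of the counts of LPS EVs go, against 0.195%, 0.449% and 0.712% of those of control EVs. Genes without a count then made up 35.5%, 51.7% and 38.5% in LPS EVs and 30.7%, 35.9% and 38.6% in control EVs, and 1 gene rose in edgeR, with 570 higher and 437 lower at an unadjusted p under 0.05. That 1 gene was Gm29371. Among the response RNAs named above, Il6, Irak3, Cxcl9, Ccl6, Cxcl16, Cmpk2, Ifi44, Parp14, Samd9l and Slfn5 no longer had enough counts to be tested. Il1b, Cxcl10, Csf3, Rtp4 and Ifit3b were among the RNAs still tested and did not pass. The subtraction was chosen after the data were seen, and the part of this low signal in single genes was not tested. Any excess in the level was not measured. The shares removed, the 1 rise and the genes no longer tested are therefore descriptions.

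The 12 RNAs with the largest bounds had no count in control EVs and ranged in cells between absent and well expressed. Gm29371, a predicted gene, had 361, 124 and 221 CPM in LPS EVs, at least 563-fold higher (edgeR adjusted p = 0.025). Ttn, the muscle protein titin with the longest known coding sequence, had 117, 349 and 139 CPM in LPS EVs, at least 483-fold higher, beside 0.359 CPM in LPS cells and 0.167 CPM in control cells. Others among the leading 12 were Syne2, Cacna1e, Dnah8, Dlgap1, Nrcam, Gen1 and Rian. Cacna1e, a neuronal calcium channel, had 48, 112 and 60.7 CPM in LPS EVs, and Dnah8, an axonemal dynein, had 33.3, 112 and 47.5 CPM. In each of these 3, LPS EVs 2 held the highest value. Rpap1, an RNA polymerase II associated protein, was well expressed in the cells. It had 92.1, 73 and 61.3 CPM in LPS EVs, at least 181-fold above control EVs, beside 90.3 CPM in LPS cells and 83.2 CPM in control cells. Fau-ps2, at 82, 334 and 156 CPM in LPS EVs, is a pseudogene whose reads may belong to its parent gene. Ttn, Syne2, Cacna1e, Dnah8, Dlgap1 and Rian were no longer tested once the level of cell-silent genes was taken off. Nrcam, Gen1, Rpap1 and Fau-ps2 were then still tested and did not pass, while Gm29371 passed. By class, 110 of 277 long intergenic RNAs, 53 of 262 processed pseudogenes and 1283 of 10972 protein-coding genes rose, against 13.9% over all. Among genes that the cell counts alone would have listed, these were 14 of 110, 2 of 111 and 530 of 9820, against 5.51%.

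Of 7 tested members of the list of small and structural non-coding RNAs and of loci that can collect their reads, 2 rose, against 13.9% over all genes tested, and 0 fell, with a median log2 fold change of 2.95. Gm23935 had 2244, 1379 and 2403 CPM in LPS EVs and 239, 215 and 326 CPM in control EVs, a fold of 7.73 (log2 2.95 ± 0.44 SE, edgeR adjusted p = 0.025). Its mean in cells was 973 CPM with LPS and 1741 CPM in controls. Lars2, a mitochondrial leucyl-tRNA synthetase, had 2605, 1718 and 3423 CPM in LPS EVs and 456, 899.9 and 435 CPM in control EVs (log2 2.11 ± 0.50 SE, edgeR adjusted p = 0.0269), beside 2748 CPM in LPS cells and 4458 CPM in control cells. Reads of both loci can come from repeated copies, so their source is uncertain. Gm26917, at 295, 448 and 351 CPM in LPS EVs and 246, 157 and 255 CPM in control EVs, did not pass (edgeR adjusted p = 0.392).

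The 29 RNAs that fell were mostly of genes well expressed in cells, and 20 of them also fell in LPS cells while 4 rose there. Over all genes tested in cells, 27.5% fell and 28.6% rose. Gng7, a G protein γ subunit, was nearly lost, with 0.258, 0 and 0.152 CPM in LPS EVs and 26.2, 34.2 and 35.3 CPM in control EVs (log2 −7.69 ± 1.60 SE, edgeR adjusted p = 0.025). Vps18, a subunit of the tethering complexes that fuse vesicles with late endosomes and lysosomes, had 83.9, 83.7 and 72.9 CPM in LPS EVs and 417, 246 and 357 CPM in control EVs (log2 −2.08 ± 0.39 SE, edgeR adjusted p = 0.025). Dgkd, a diacylglycerol kinase outside the leading 12 falls, had 118, 106 and 94.9 CPM in LPS EVs and 337, 429 and 481 CPM in control EVs. Ndst1, an enzyme of heparan sulfate synthesis, had 98.8, 58.8 and 50.4 CPM in LPS EVs and 226, 270 and 570 CPM in control EVs. Acap2, a GTPase-activating protein for Arf6 on endosomes, had 11.1, 19.9 and 4.26 CPM in LPS EVs and 127, 68 and 92.9 CPM in control EVs. In all 5, as in all 29, every LPS EV library lay below every control EV library. Klhl9, Sesn2, Ddx19b, Sh2d3c, Arhgap19, Aph1c, Hs1bp3 and Myadm completed the leading 12, at log2 fold changes between −3.51 and −2.12.

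RNAs for proteins of vesicle formation were tested as a list of 37 tetraspanin, annexin and ESCRT genes. Of these 1 rose and 2 fell, against 13.9% and 0.237% over all genes tested, with a median log2 fold change of −0.55. Anxa2, a calcium-dependent membrane-binding protein, had 222, 195 and 249 CPM in LPS EVs and 614, 502 and 523 CPM in control EVs (log2 −1.30, edgeR adjusted p = 0.0454). Anxa6, of the same family, had 55.5, 56.8 and 62.8 CPM in LPS EVs and 192, 131 and 229 CPM in control EVs (log2 −1.66, edgeR adjusted p = 0.0311). Over the alternative settings Anxa2 passed in 4 of 18 and Anxa6 in 7 of 18. Cells lowered 22 of the 37, against 27.5% of all genes tested in cells. Rab27a, a GTPase of exosome secretion, was the one that rose. It was under 1 CPM in cells, and cell counts alone would not have listed it. It was no longer tested once the level of cell-silent genes, described above, was taken off. The tetraspanin RNAs did not pass. Cd63 had 1509, 723 and 1390 CPM in LPS EVs and 1955, 1164 and 1666 CPM in control EVs (edgeR adjusted p = 0.803). Cd9 had 333, 206 and 641 CPM in LPS EVs and 1105, 695 and 592 CPM in control EVs (edgeR adjusted p = 0.38).

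Of 37 lysosomal genes 0 passed in edgeR, 10 were lower at an unadjusted p under 0.05 (2.62% over all genes tested), and the median log2 fold change was −0.93. Ctsb, the protease cathepsin B, had 1425, 2555 and 2978 CPM in LPS EVs and 9216, 4779 and 6290.5 CPM in control EVs (edgeR adjusted p = 0.0954, DESeq2 adjusted p = 0.0192). Cells lowered 27 of the 37, against 27.5% of all genes tested in cells. Of 10 tested RNAs encoded in the mitochondrial genome 1 fell, against 0.237% over all genes tested, with a median of −1.45. That one, mt-Nd5, a subunit of respiratory complex I, had 52.6, 57.3 and 71.3 CPM in LPS EVs and 252, 146 and 209 CPM in control EVs (log2 −1.74, edgeR adjusted p = 0.0262). Over the alternative settings mt-Nd5 passed in 7 of 18. Mitochondrially encoded RNA made up 0.183% ± 0.0436 of the counts in LPS EVs and 0.284% ± 0.115 in control EVs (SD, n = 3 each, exact permutation p = 0.3).

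The abundant RNAs described next did not pass the test in edgeR. The 20 most abundant took 20.4% ± 3.59 of the counts in LPS EVs and 23.1% ± 2.91 in control EVs (SD, n = 3 each, exact permutation p = 0.5). Fth1, the ferritin heavy chain, had 90197, 36908 and 52480 CPM in LPS EVs and 32818, 46304 and 43400.5 CPM in control EVs (edgeR adjusted p = 0.746). Spp1, the secreted phosphoprotein osteopontin, had 7937, 7855 and 11879 CPM in LPS EVs and 15422, 17035 and 19345 CPM in control EVs, without overlap but short of the threshold (edgeR adjusted p = 0.331). Gpnmb, a glycoprotein of phagocytes, had 7261, 8252 and 16450 CPM in LPS EVs and 38476, 16683 and 18225 CPM in control EVs (edgeR adjusted p = 0.329). In DESeq2 the adjusted p was 0.0312 for Spp1 and 0.14 for Gpnmb. Lcp1, the actin-bundling protein L-plastin, had 10799, 4074 and 6865 CPM in LPS EVs and 1512, 22162 and 14235 CPM in control EVs. The control EV libraries spread more than 10-fold, with control EVs 1 the lowest. The mean of Lcp1 was 1188 CPM in both LPS and control cells. Cep85, a centrosomal protein, had 6929.5, 2603 and 4177 CPM in LPS EVs and 401, 10632 and 7097 CPM in control EVs, beside 139.8 CPM in LPS cells and 111 CPM in control cells. Control EVs 1 was the lowest control EV library for Cep85 too.

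In the remaining lists few or no members passed. Ribosomal protein genes had 0 calls of 76 with a median log2 fold change of −0.12, and they made up 6.69% ± 1.99 of the counts in LPS EVs and 6.50% ± 3.03 in control EVs (SD, n = 3 each, exact permutation p = 0.9). Oxidative phosphorylation gave 0 of 75, NRF2 targets 0 of 25, cytoskeleton 0 of 30 and splicing factors 0 of 32. Of 50 cell cycle genes 2 rose, Ccne2 and Orc1, while cells raised all 50, beside 28.6% of all genes tested there. Glycolysis and hypoxia gave 1 of 31, histones 1 of 19, MHC class I and peptide loading 1 of 21, and nuclear long non-coding RNAs 2 of 17. Of 20 homeostatic microglial genes 1 rose, Tmem119, a surface marker of resident microglia, with 5.68, 4.74 and 24.2 CPM in LPS EVs and no count in control EVs. Of 30 disease-associated microglial genes 2 rose, Ccl6 and Axl, a receptor of apoptotic cells. These shares lie at or below the 13.9% over all genes.

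**Figure D5:**
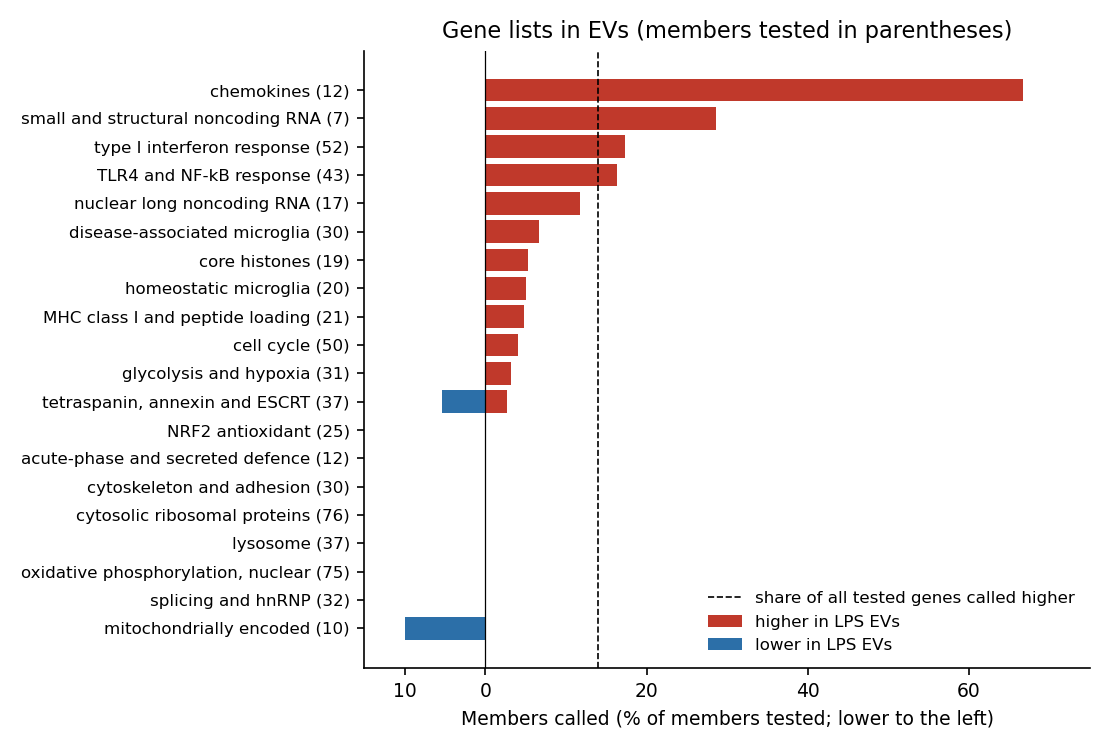
Percent of the tested members of each gene list that passed the edgeR threshold, higher in LPS EVs to the right and lower to the left, with the number tested in parentheses and the share of all tested genes called higher, 13.9%, as a dashed line. Chemokines, with 8 of 12, reach farthest to the right, and 1 of 10 mitochondrially encoded RNAs lies to the left.

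LPS EVs were also compared with the EVs of the other treated cells in a fit of all 12 EV libraries. Against IL-10 EVs 0 genes passed in edgeR, with 2014 higher and 439 lower at an unadjusted p under 0.05. Against TGF-β EVs 6 passed (0.0472% of those tested), 3 higher (0.0236%) and 3 lower (0.0236%). The higher ones were Gm23935 (log2 4.67 ± 0.56 SE, edgeR adjusted p = 0.0126), Lars2 (log2 4.24 ± 0.48 SE, edgeR adjusted p = 0.0126) and Gm26917 (log2 3.81 ± 0.50 SE, edgeR adjusted p = 0.0165). The lower ones were Arhgap19, Dgkd and Poldip2. Fits of only the 6 libraries of each pair gave 1630 higher and 181 lower against IL-10 EVs, and 1579 higher and 431 lower against TGF-β EVs. In the same 12-library fit 0 genes passed between LPS and control EVs, with 2196 higher and 229 lower at an unadjusted p under 0.05. On library totals, Il1b averaged 57.6 ± 63.6 CPM in IL-10 EVs and 58.1 ± 97.6 CPM in TGF-β EVs, and Cxcl10 averaged 5.39 ± 8.44 CPM in IL-10 EVs and 1.74 ± 1.61 CPM in TGF-β EVs (SD, n = 3 each). With TMM scaling, control EVs averaged 51.3 ± 40.8 CPM of Il1b and 10.3 ± 9.2 CPM of Cxcl10 (SD, n = 3 each). The 3 comparisons share the LPS EV libraries.

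Markers of microglia and macrophages were present in every EV library. All 10 of that list were listed and 0 changed, with a median log2 fold change of −0.73. Their summed level was 7242, 6239 and 7628 CPM of totals in LPS EVs and 14082, 6751 and 9658 CPM in control EVs. Markers of other cell types were low and partly higher in LPS EVs. Of 7 neuronal markers 3 were listed, and Syt1 and Rbfox3 rose. Cell counts alone would have listed none of these 3. Rises of markers stand beside 13.9% over all genes tested and 482 of 661 at up to 0.1 CPM in cells. The summed neuronal level was 20.1, 146 and 56.5 CPM in LPS EVs and 0, 1.77 and 9.13 CPM in control EVs. Astrocyte markers summed to 64.3, 320 and 87 CPM in LPS EVs and 15.6, 0 and 42.2 CPM in control EVs, with 4 of 6 listed and Gja1 higher. Endothelial markers summed to 84.9, 178 and 258 CPM in LPS EVs and 179, 211 and 102 CPM in control EVs, with Pecam1 and Kdr higher. The only fibroblast marker listed, Col3a1, had 10.3, 51.3 and 10.7 CPM of totals in LPS EVs and no count in control EVs. Of 7 lymphocyte markers 3 were listed and Ms4a1 rose. Erythroid, liver and oligodendrocyte markers had 1 of 7, 1 of 6 and 2 of 6 listed and 0 passed. Oligodendrocyte markers summed to 10.5, 31.8 and 6.21 CPM of totals in LPS EVs and 0.222, 0 and 88 CPM in control EVs. The erythroid marker had 63.8, 91.4 and 118 CPM of totals in LPS EVs and 157, 125 and 159 CPM in control EVs. The part of these levels in the other results was not tested.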

How the data were processed

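RNA of the EVs and of the cells was amplified with SMART-Seq v4 and sequenced as paired reads of 150 bases after 18 PCR cycles in Nextera XT libraries, per the labels' protocols. The authors deposited raw read counts per gene, and DESeq2 is named without a version in the submitters' processing notes. The aligner is not given, nor is the genome build, among the sources used here. Columns name the group but not which sample, and 0 columns were left unmapped. Genes in the tables have at least 240 counts over the 24 libraries.

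The deposited counts of the 6 LPS and control EV libraries were filtered with filterByExpr, scaled by TMM and fitted by the robust quasi-likelihood method of edgeR 4.0.16 in R 4.3.3, with a Benjamini-Hochberg threshold of 0.05. Cells were fitted alike, and the difference between EV and cell effects came from a joint fit. limma 3.58.1 and DESeq2 1.42.0 served as alternatives. The edgeR steps were tested on simulated data. Shares were compared with two-sided exact permutation tests over libraries, where 3 against 3 cannot go below 0.1.

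The genes named are the 12 largest rises and falls among those called without overlap and with enough counts, the most abundant EV RNAs, set members of each gene list and fixed response genes. Calls of the short lists and the genes changed most in cells were added after their values were seen. The members and lists were chosen with earlier results of these data known. Exon lengths and classes came from the GENCODE annotation in the reference. Depth ran from 3019338 to 17978753 counts in the 6 EV libraries, so a count of 0 allows up to between 0.167 and 0.994 CPM. Recipient cells dosed with EVs were not analysed here.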

Additional observations from a re-analysis of the deposited data

Results flagged for a closer look

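The LPS effect in EVs differed from the LPS effect in cells, by the interaction term of the joint edgeR fit, for 53 of the genes named above. The fitted size has no meaning for 26 of them, which had no count in one of the 4 groups, and the other 27 are given here (adjusted p between 8.01e-05 and 0.0264). Over all genes 16.1% passed in edgeR. In the limma-voom fit with weights per group 10 of the 27 passed. These were Lcn2, Gm14275, Marco, H2-M2, Saa3, Hp, Acod1, Gng7, Arg1 and F13a1. All but Gng7 were chosen by their large change in cells, which enters the difference. Values are log2, EVs minus cells.

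The effect was lower in EVs for 20 genes. Among RNAs that LPS cells raised, the difference was −13.99 for Lcn2, −10.96 for Gm14275, −7.00 for Marco, −6.88 for H2-M2, −6.84 for Saa3, −6.55 for Hp, −5.96 for Acod1, −5.12 for Tnf, −3.04 for Nos2, −2.89 for Ccl5 and −1.65 for Ccl9. Ccl5 and Ccl9 still rose in LPS EVs. Among RNAs lower in LPS EVs, it was −7.72 for Gng7, −2.97 for Acap2, −2.80 for Ddx19b, −1.96 for Vps18, −1.92 for Hs1bp3, −1.81 for Myadm, −1.48 for mt-Nd5 and −1.27 for Anxa6. It was −1.41 for Poldip2, which was lower against TGF-β EVs.

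The effect was higher in EVs for 7 genes. Arg1 at 8.48 and F13a1 at 7.72 fell in LPS cells and kept counts in LPS EVs. The interferon-stimulated Xaf1 and Slfn5 gave 6.15 and 5.64, and neither passed in limma-voom (adjusted p = 0.194 and 0.190). Xaf1 had almost no counts in control EVs, so its size is poorly fixed. Gm23935 gave 3.62, Lars2 2.64 and Gm26917 1.35. The cause of these differences was not tested.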

How the results depend on the processing

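The count of 1703 RNAs higher and 29 lower in LPS EVs changed with the processing. DESeq2 gave 2141 higher and 225 lower, limma-voom 2989 and 49, and library totals in place of TMM 14 lower. A minimum of 50 counts left 0 and 0 (931 and 289 at an unadjusted p under 0.05), a minimum of 1000 counts 7 and 0, the fit of all 12 EV libraries 0 and 0, genes at 1 CPM or more in cells 0 and 0, and the subtracted silent-gene level 1 and 0. The last 2 were added after the data were seen, and the silent-gene level may be too high, as described above. Leaving out 1 library gave 0 to 2481 higher and 0 to 118 lower. DESeq2 size factors gave 1700 higher and 29 lower, of which 1689 and 18 were the same genes. Against IL-10 EVs the 6-library fit gave 1811 calls in place of 0, and leaving out 1 library 0 to 0. Against TGF-β EVs, with 6 calls, it gave 2010, DESeq2 size factors 22, and leaving out 1 library 0 to 2. The interaction of EVs with cells, with 2135 calls, gave 842 at a minimum of 50 counts, 24 in limma-voom and 1788 to 3587 without 1 library, the highest without control EVs 1. The difference between LPS and control EVs in genes without a count stayed between −31.2 and −29.0 percentage points without 1 library, in the share of RNAs raised in cells between 1.60 and 1.89, in the share of cell-silent genes between 0.321 and 0.678 (1.50 with 1 to 3 counts in cells taken as none), in mitochondrial RNA between −0.165 and −0.0536, and in the 20 most abundant between −4.14 and −0.633. Of 3125 values of single genes in these settings, 2374 were on the same side of the threshold, 65 newly passed, 686 no longer passed and 0 called values changed sign. The cause of these changes was not tested. No paired analysis was possible because the columns carry numbers that the labels do not tie to a shared culture or day.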
